A study of Mus musculus with 24 samples.

Results

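The CXC chemokine genes are 10 rows of the deposited expression table: Cxcl1, Cxcl2, Cxcl3, Cxcl5, Cxcl9, Cxcl10, Cxcl12, Cxcl13, Cxcl14 and Cxcl16. They were chosen by symbol from the 27179 genes of the table, and each of the 10 passed the filter on low values, which kept the 14517 genes that reached 10 normalised counts in 3 or more libraries. Bulk RNA sequencing libraries had been made from PDGFRb+ cells sorted by flow cytometry from white fat of C57BL/6 mice, with no transgene, drug or diet named in the labels. There were 24 libraries in 8 groups of 3. The cells labelled APC and FIP came from gonadal fat and those labelled DPP4_neg and DPP4_pos from inguinal fat, each from females (F_APC, F_FIP, F_DPP4_neg, F_DPP4_pos) and from males (M_APC, M_FIP, M_DPP4_neg, M_DPP4_pos). The ages of the mice, the number pooled per library and the gates that separated APC from FIP are not given in the sources used here, and the labels do not say whether the 3 libraries of a group came from separate animals. The p-values therefore rest on a spread among libraries that may be technical.

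Chemokines are small secreted proteins that draw leukocytes along a gradient, and the CXC family is named for its pair of cysteines with 1 residue between them. Cxcl1, Cxcl2, Cxcl3 and Cxcl5 bind the receptor Cxcr2 and attract neutrophils, and their transcription is switched on by NF-kB after interleukin-1, TNF or Toll-like receptor signals. Cxcl9 and Cxcl10 are induced by interferons and attract T cells through Cxcr3. Cxcl12 is made constitutively by stromal cells and binds Cxcr4, with Ackr3 as a scavenger, whereas Cxcl13 attracts B cells through Cxcr5, Cxcl16 is a membrane-anchored ligand of Cxcr6, and Cxcl14 is expressed without a stimulus in many epithelia and stromal cells. Fibroblast-like cells of adipose tissue, including preadipocytes, are a known source of several of them.

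Recovered reads ranged from 9152470 to 18221700 per library, and the log2 values of libraries of 1 group correlated with r between 0.982 and 0.992. The sorted cell type was checked on 10 fibroblast and progenitor markers, all of which were detected. Group means of Pdgfrb lay between 1770.2 and 6152 normalised counts, and those of Pdgfra between 6728 and 18267. Summed over 13 markers, macrophage transcripts stayed between 170 and 1668 normalised counts in all libraries. F_DPP4_neg stood apart in epithelial transcripts, with 10 markers summing to 4254 to 10293 against 14.2 to 404 in the other 7 groups. Dpp4, the gene the inguinal labels name, was at 4213, 2124 and 1150.2 in F_DPP4_neg and 243, 235 and 258 in M_DPP4_neg, against 17356, 20848 and 18412 in F_DPP4_pos and 14883, 15348 and 16085 in M_DPP4_pos. The F_DPP4_neg libraries were thus below the DPP4_pos libraries but above those of M_DPP4_neg, 10.2 times by the means, and spread widely. Neutrophil transcripts were present in the DPP4_neg groups, and their values are given beside the neutrophil-attracting ligands.

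Of the members, 7 lie on mouse chromosome 5, with coordinates from the GENCODE annotation of GRCm38. From Cxcl5 (chr5:90759360-90761624) the order is Ppbp, Pf4, Cxcl3 (chr5:90786103-90789600), Cxcl15, Cxcl1 (chr5:90891241-90893115) and Cxcl2 (chr5:90903871-90905938), all on the plus strand within 146.579 kb. Cxcl9 (chr5:92321347-92328079) and Cxcl10 (chr5:92346638-92348889) follow on the minus strand, 18.558 kb from each other, and Cxcl13 (chr5:95956951-95961068) lies on the plus strand 3608 kb beyond them. Cxcl12 (chr6:117168535-117181367, plus), Cxcl14 (chr13:56288643-56296551, minus) and Cxcl16 (chr11:70453983-70459984, minus) are single.

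Promoter sequences from RefSeq (GRCm38.p6, a window around the annotated start) were matched for 8 of the 10 members. Cxcl5 and Cxcl16 had no such sequence and were not searched. They were searched on both strands for the core of an NF-kB motif (GGNNTTTCC), the core of an interferon response motif, ISRE (AAANNGAAA), and an interferon-gamma motif, GAS (TTCNNNGAA). The GAS motif reads the same on both strands, and the NF-kB motif and the reverse of the ISRE motif can share the letters TTTC. The NF-kB motif was in 5 of the 8 member promoters, those of Cxcl1, Cxcl2, Cxcl3, Cxcl9 and Cxcl10, and in 5.82% of all 32851 promoters of the same length. Matches began 70 and 89 bases before the start of Cxcl1, at 96 and 77 bases before that of Cxcl2, at 72 bases before that of Cxcl3, at 130 and 42 bases before that of Cxcl9 and at 158 bases before that of Cxcl10. The match at 89 bases in Cxcl1 and the one in Cxcl10 were on the strand opposite to the gene. Read on the motif's own strand, a match was preceded by a further G in Cxcl1, Cxcl2 and Cxcl3, as in 1.63% of all promoters. Cxcl9 and Cxcl10 had no such G there. Both matches of Cxcl9 begin with GGG, however, and on the strand of the gene a G precedes the match of Cxcl10. The ISRE motif was in 2 of the 8, at 212 bases before the start of Cxcl10 and 171 before that of Cxcl14, against 10.6% of all promoters. The GAS motif was in 1 of the 8, Cxcl14, against 8.30% of all promoters. The motif lengths were settled after matches had been seen. Matches are descriptions of letters and do not show that a factor was bound. The stretches below are shown because Cxcl1, Cxcl2 and Cxcl3, the clustered neutrophil-attracting genes that were searched, carry near-identical letters close to their starts. Cxcl10 is set beside them as the interferon-induced ligand. Whether these letters bear on the levels was not tested, and the 3 genes did not move together in all comparisons. NF-kB matches are in capitals in the first 3 (chr5:90891125-90891244, chr5:90903779-90903898 and chr5:90785981-90786100, plus strand) and the ISRE match in the last (chr5:92349070-92349129, minus strand).
Cxcl1: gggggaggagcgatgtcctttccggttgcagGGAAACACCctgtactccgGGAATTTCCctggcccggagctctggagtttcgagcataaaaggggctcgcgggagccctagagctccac
Cxcl2: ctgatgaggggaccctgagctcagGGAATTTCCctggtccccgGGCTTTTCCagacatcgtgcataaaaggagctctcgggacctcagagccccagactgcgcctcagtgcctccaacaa
Cxcl3: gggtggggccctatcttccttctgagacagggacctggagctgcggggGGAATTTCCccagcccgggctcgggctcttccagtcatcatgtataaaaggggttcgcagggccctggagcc
Cxcl10: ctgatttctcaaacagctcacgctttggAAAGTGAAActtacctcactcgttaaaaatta

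The values that follow are the deposited normalised counts, which are reads divided by 1 size factor per library, and are given for the 3 libraries of a group in the order of their label numbers. Cxcl1, the keratinocyte-derived neutrophil attractant, was the most abundant member in every group. Gonadal values of Cxcl1 were 25823, 22967 and 26508 in F_APC, 18108, 18287 and 20249 in F_FIP, 38126, 35220.2 and 33994 in M_APC and 40150.0, 39795 and 38824 in M_FIP. Inguinal values of Cxcl1 were 20451, 17377 and 19055 in F_DPP4_neg, 18652, 14809 and 19798 in F_DPP4_pos, 114933, 118501 and 116110.0 in M_DPP4_neg and 103161, 100123 and 115709 in M_DPP4_pos. All 12 male libraries were above all 12 female libraries, and the 6 male inguinal libraries were above the rest. By rank of the deposited value, Cxcl1 was between the 8th and 10th gene of the male inguinal libraries and between the 92nd and 138th of the F_DPP4_pos libraries. Its share of the summed level of the 10 members ranged from 53.4% in F_APC to 84.8% in M_FIP (means of 3 libraries).

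Cxcl2, its neighbour 10.755 kb downstream and likewise a Cxcr2 ligand, had the same top groups. Gonadal values of Cxcl2 were 409, 403 and 536 in F_APC, 425, 403 and 488 in F_FIP, 656, 536 and 587 in M_APC and 2906, 2938 and 2844 in M_FIP. Inguinal values of Cxcl2 were 868, 720.5 and 938 in F_DPP4_neg, 657, 485 and 606 in F_DPP4_pos, 10129, 9423 and 8451 in M_DPP4_neg and 17925, 17445 and 19409.7 in M_DPP4_pos. The order M_DPP4_pos, M_DPP4_neg, M_FIP and F_DPP4_neg held library by library, and M_APC, F_DPP4_pos, F_APC and F_FIP overlapped, each with the next, below them. The highest group mean was 41.6 times the lowest.

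Cxcl3, another Cxcr2 ligand of the cluster, had the widest range of the 10 members, 583-fold between group means. Gonadal values of Cxcl3 were 35.6, 22.6 and 44.2 in F_APC, 44.9, 38.4 and 23.9 in F_FIP, 4.29, 4.64 and 11.3 in M_APC and 103, 105 and 87.8 in M_FIP. Inguinal values of Cxcl3 were 168, 92.9 and 163 in F_DPP4_neg, 218, 131 and 302 in F_DPP4_pos, 648, 433 and 457 in M_DPP4_neg and 3969, 4099 and 3740.1 in M_DPP4_pos. M_DPP4_pos was far above every other group, and M_APC was the lowest with 18 reads in its 3 libraries together, so its level there has a large counting error.

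Cxcl5, at the other end of the cluster and also a ligand of Cxcr2, was an inguinal male transcript. Gonadal values of Cxcl5 were 82.2, 59.5 and 96.8 in F_APC, 64.0, 55.4 and 73.6 in F_FIP, 47.2, 27.8 and 45.3 in M_APC and 36.8, 64.2 and 26.8 in M_FIP. Inguinal values of Cxcl5 were 197, 179.5 and 216 in F_DPP4_neg, 110.0, 111 and 154 in F_DPP4_pos, 2919, 1901 and 1824 in M_DPP4_neg and 5057, 5326 and 4854 in M_DPP4_pos. The lowest library of the male inguinal groups was at 1824 and the highest library of the other 6 groups at 216.

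**Figure D1:**
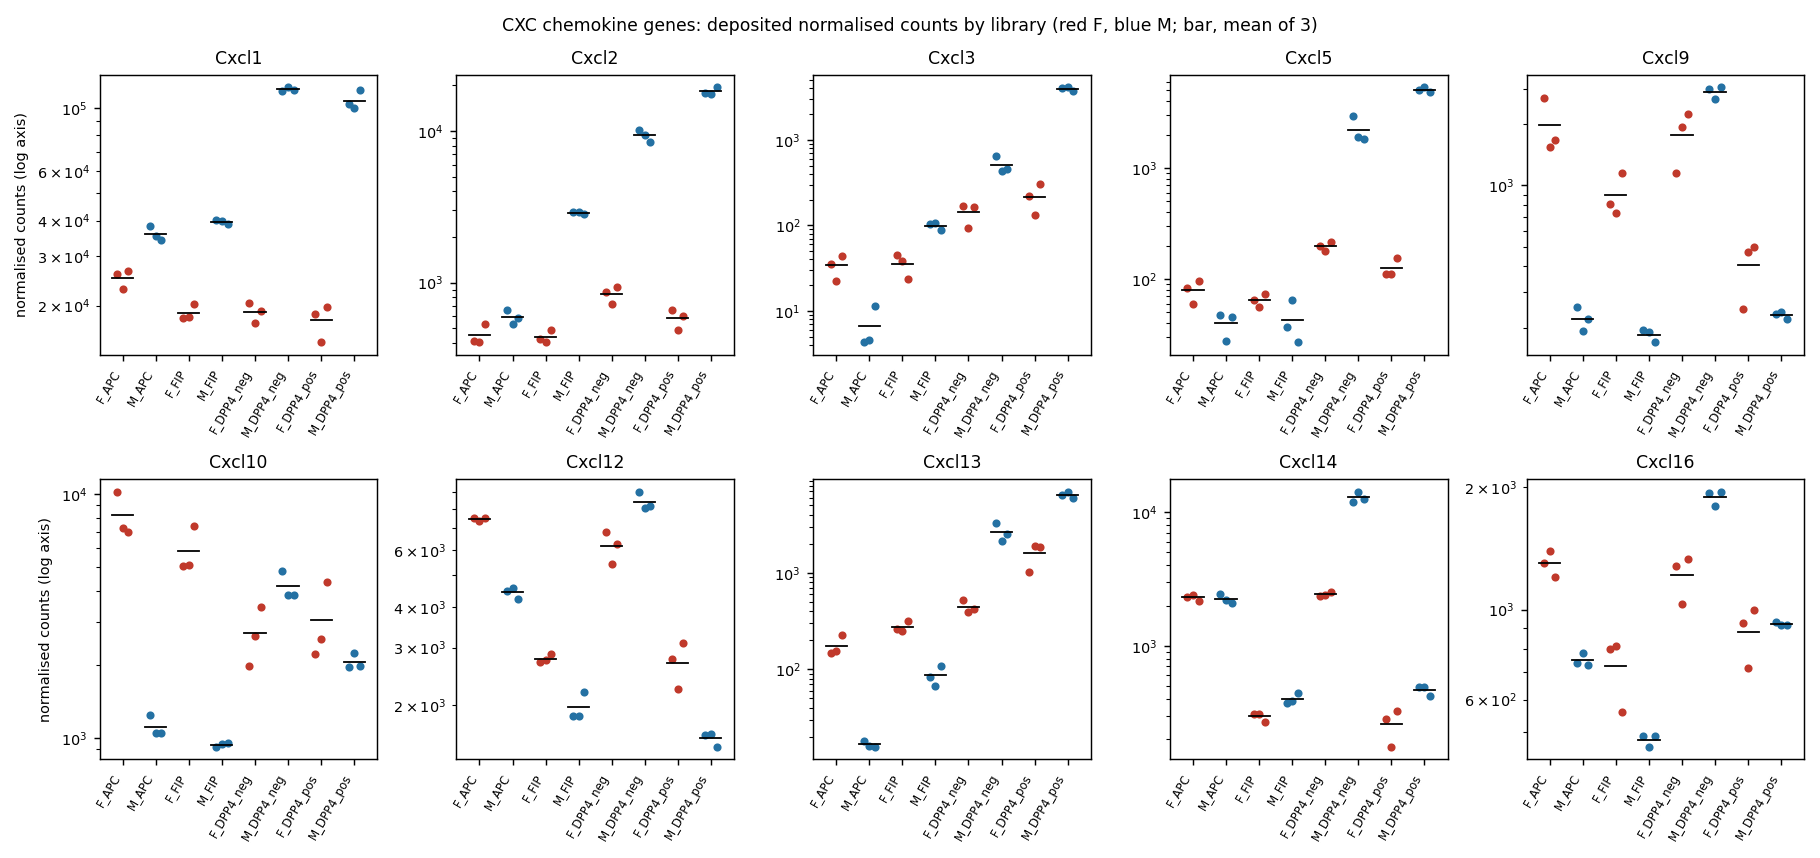
Deposited normalised counts (log axis) of the 10 CXC chemokine genes in each of the 24 libraries, by group, with a bar at the mean of 3 libraries, females in red and males in blue. For Cxcl1, Cxcl2 and Cxcl5 the M_DPP4_neg and M_DPP4_pos libraries sit above those of the other 6 groups, whereas Cxcl10 is highest in F_APC (mean 8155) and Cxcl14 and Cxcl12 are low in FIP and DPP4_pos.

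Cxcl10, an interferon-induced ligand of Cxcr3, had a different order, with the gonadal females at the top and the gonadal males at the bottom. Gonadal values of Cxcl10 were 10214, 7272 and 6978 in F_APC, 5041, 5099 and 7366 in F_FIP, 1246, 1047 and 1046 in M_APC and 922, 947 and 952 in M_FIP. Inguinal values of Cxcl10 were 1975, 2625 and 3442 in F_DPP4_neg, 2219.7, 2534 and 4338 in F_DPP4_pos, 4822, 3841 and 3867 in M_DPP4_neg and 1960.1, 2231 and 1981 in M_DPP4_pos. The 6 gonadal male libraries were below the other 18. Cxcl9, the other Cxcr3 ligand, shared the low gonadal males but not the inguinal pattern. Gonadal values of Cxcl9 were 2704, 1549 and 1683 in F_APC, 814, 736 and 1154 in F_FIP, 252, 191 and 221 in M_APC and 195, 189 and 169 in M_FIP. Inguinal values of Cxcl9 were 1158, 1939 and 2240.2 in F_DPP4_neg, 247, 468 and 501 in F_DPP4_pos, 2974, 2653 and 3042 in M_DPP4_neg and 233, 238 and 219 in M_DPP4_pos. M_DPP4_neg, F_APC and F_DPP4_neg formed an overlapping upper set, and M_DPP4_pos, M_APC and M_FIP, with overlapping libraries, had the lowest means. The libraries of F_DPP4_pos spread widely, and 1 of them was below the highest M_APC library.

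Cxcl12, the constitutive stromal ligand of Cxcr4, followed the subpopulation in both depots. Gonadal values of Cxcl12 were 7504, 7359.6 and 7486 in F_APC, 2714, 2745 and 2876 in F_FIP, 4469, 4587 and 4246 in M_APC and 1856, 1854 and 2196 in M_FIP. Inguinal values of Cxcl12 were 6821, 5405 and 6246 in F_DPP4_neg, 2762, 2234 and 3091 in F_DPP4_pos, 9051, 8053 and 8174 in M_DPP4_neg and 1622, 1631 and 1489 in M_DPP4_pos. All 12 APC and DPP4_neg libraries were above all 12 FIP and DPP4_pos libraries. Cxcl14, the orphan member of the family, divided the same 24 libraries in the same way. Gonadal values of Cxcl14 were 2313, 2413 and 2171 in F_APC, 307, 309 and 271 in F_FIP, 2431, 2187 and 2102 in M_APC and 376, 384 and 441 in M_FIP. Inguinal values of Cxcl14 were 2372, 2378 and 2524 in F_DPP4_neg, 284, 176 and 326 in F_DPP4_pos, 11890.0, 14242 and 12474 in M_DPP4_neg and 494, 490.3 and 419.6 in M_DPP4_pos. Its values in F_DPP4_neg, F_APC and M_APC overlapped, each with the next, and M_DPP4_neg was far above them.

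Cxcl13, the B cell attractant, ran the other way in the inguinal depot, with the higher values in DPP4_pos. Gonadal values of Cxcl13 were 149, 153 and 227 in F_APC, 264, 247 and 318 in F_FIP, 18.2, 16.2 and 15.8 in M_APC and 84.1, 67.8 and 109.7 in M_FIP. Inguinal values of Cxcl13 were 528, 396 and 417 in F_DPP4_neg, 1010.3, 1911 and 1865 in F_DPP4_pos, 3265, 2141 and 2538 in M_DPP4_neg and 6344, 6927 and 5975 in M_DPP4_pos. No neighbours overlapped in its order of groups, from M_DPP4_pos down through M_DPP4_neg, F_DPP4_pos, F_DPP4_neg, F_FIP, F_APC and M_FIP to M_APC. All 12 inguinal libraries were thus above all 12 gonadal ones, and M_APC was the lowest group with 45 reads over 3 libraries. Cxcl16, the membrane-anchored ligand, varied least, by 3.96 times between group means. Its highest values were 1931, 1799 and 1952 in M_DPP4_neg and its lowest 487, 459 and 488 in M_FIP, and the other 6 groups lay between 560 and 1392, with M_DPP4_pos, F_DPP4_pos, M_APC and F_FIP overlapping, each with the next.

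To compare levels between genes, the means were divided by the length of the merged exons. On this scale (normalised counts per kb) Cxcl1 was at 62141 in M_DPP4_neg and 9468 in F_DPP4_pos, the highest and lowest of its 8 group means. In M_DPP4_neg the next members were Cxcl14 at 7043 and Cxcl2 at 4514 per kb. In M_DPP4_pos they were Cxcl2 at 8829.7 and Cxcl13 at 5578. In F_APC Cxcl10 came second at 3621, followed by Cxcl14 at 1258. The second place thus went to a different member in these 3 groups. The 10 members together took 1.0% of the deposited signal of M_DPP4_neg and 0.891% of that of M_DPP4_pos, against 0.186% in F_DPP4_pos.

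Across the 24 libraries, Pearson's r on log2(value + 1) was computed for the 45 pairs of members as a description. The libraries share groups, depth and sort, so these values carry no p. They ranged from -0.32 (Cxcl12 with Cxcl3) to 0.92 (Cxcl1 with Cxcl2), and 33 were above 0. Cxcl13 went with Cxcl3 (0.91) and Cxcl5 (0.86), Cxcl12 with Cxcl14 (0.87), and Cxcl9 with Cxcl12 (0.81) and Cxcl10 (0.79). Among all other tested genes, those with the highest r to Cxcl1 were Napa (0.98), Ttc39b (0.96) and Il6 (0.96). For Cxcl2 they were Ptp4a1, Snapc1 and Dnajc25 (0.96 each), for Cxcl3 Prg4 (0.97), H2afy and Tdo2 (0.95 each), and for Cxcl5 Pabpc4, Qtrt1 and Dnaja2 (0.97 each). The nearest to Cxcl9 were Iigp1 (0.94), Olfm2 (0.92) and Doc2b (0.91), and the nearest to Cxcl10 were Nol3 (0.94), Irgm2 (0.94) and Gbp8 (0.93). Iigp1, Irgm2 and Gbp8 are interferon-inducible GTPase genes. Slc27a1 (0.97), Acsf2 (0.95) and Olfm2 (0.94) were the nearest to Cxcl12, and Plin4 (0.97), H2-Q10 (0.96) and Insig1 (0.96) to Cxcl14. Apol9a and Ccl8 (0.97 each) were among the nearest to Cxcl13, and Creb3l3 (0.94), Sgpl1 (0.93) and Hcar2 (0.92) to Cxcl16. The genes given are from the top 3 of those with an assigned name, over 24 libraries.

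The first comparison asks how the members differed between males and females within each subpopulation, the sex dependence that the series title names. In inguinal DPP4_neg cells all 10 members were higher in males. Cxcl2 was at 9334 ± 842 in M_DPP4_neg against 842 ± 111 in F_DPP4_neg (SD, n = 3), Cxcl5 at 2215 ± 611 against 198 ± 18.4, and Cxcl1 at 116515 ± 1818 against 18961 ± 1539. Tested with limma over the 14517 genes on log2(value + 1), and adjusted after Benjamini-Hochberg, the 10 members called higher compare with a background of 27.1% of all genes called higher and 30.3% called lower. Their median log2 fold change was 2.14, against -0.03 for all genes tested. Log2 fold changes with their SE were 3.47 ± 0.12, adjusted p = 1.26e-17 for Cxcl2, 3.45 ± 0.24 for Cxcl5, 2.62 ± 0.10 for Cxcl1, 2.55 ± 0.20 for Cxcl13, 2.40 ± 0.14 for Cxcl14 and 1.88 ± 0.31 for Cxcl3. Smaller differences were found for Cxcl9 (0.75 ± 0.23), Cxcl10 (0.67 ± 0.20), Cxcl16 (0.65 ± 0.12) and Cxcl12 (0.46 ± 0.09). Dpp4 was lower in M_DPP4_neg than in F_DPP4_neg (-3.15 ± 0.24), as were all 9 epithelial markers tested (median -6.53) and 6 of 13 macrophage markers, and their part in the members' differences was not tested. In such bulk data fewer expressing cells and less RNA per cell cannot be told apart. With quantile normalisation Cxcl9 (0.53), Cxcl10 (0.42) and Cxcl12 (0.11) lost the threshold, and without library 1 of F_DPP4_neg so did Cxcl9 (0.47, adjusted p = 0.0855) and Cxcl10 (0.47, adjusted p = 0.0559).

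In inguinal DPP4_pos cells the Cxcr2 ligands were again higher in males, while the Cxcr3 ligands and Cxcl12 were lower. Cxcl5 was at 5079 ± 237 in M_DPP4_pos against 125 ± 24.9 in F_DPP4_pos (SD, n = 3), Cxcl2 at 18259.9 ± 1024 against 583 ± 88.5, and Cxcl3 at 3936 ± 182 against 217 ± 85.8. Of the 10 members 6 were called higher and 3 lower, against 27.1% and 25.5% of all genes tested. Cxcl5 rose by 5.35 ± 0.24 (log2 fold change and SE), Cxcl2 by 4.98 ± 0.12, adjusted p = 1.45e-20, Cxcl3 by 4.25 ± 0.31, Cxcl1 by 2.59 ± 0.10, Cxcl13 by 2.06 ± 0.20 and Cxcl14 by 0.88 ± 0.14. Cxcl12 had a log2 fold change of -0.76 ± 0.09, Cxcl9 one of -0.75 ± 0.23 and Cxcl10 one of -0.50 ± 0.20, and Cxcl16 (0.08 ± 0.12) did not pass the test. The median of the members was 1.47 and that of all genes 0.00. Cxcl10 lost the threshold without M_DPP4_pos 1 (-0.46), M_DPP4_pos 3 (-0.47) or F_DPP4_pos 3 (-0.21), with no filter and when the other 6 groups were left out. Cxcl9 lost it without F_DPP4_pos 2 (-0.61) or F_DPP4_pos 3 (-0.56).

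Neutrophils themselves express Cxcl2 and Cxcr2, so neutrophil markers were read beside these differences. The 8 markers summed to 536 to 1921 normalised counts in M_DPP4_neg, 36.4 to 432 in F_DPP4_neg, 3.30 to 6.78 in M_DPP4_pos and 2.93 to 12 in F_DPP4_pos. The gonadal sums were 3.39 to 15.1 in M_APC, 0.990 to 7.13 in F_APC, 2.83 to 8.03 in M_FIP and 0 to 2.49 in F_FIP. Of the 8 markers, 5 passed the filter and all 5 were higher in M_DPP4_neg than in F_DPP4_neg, for example S100a8 with a mean of 459 against 61.3, whereas none of the 5 was called between M_DPP4_pos and F_DPP4_pos. Ly6g was at 0 in all libraries of F_DPP4_pos, M_DPP4_pos, F_FIP and M_FIP, and Cxcr2 was at 3.53 ± 1.37 in M_DPP4_neg and 0.385 ± 0.666 in M_DPP4_pos. The highest Cxcl2, Cxcl3 and Cxcl5 values were in M_DPP4_pos libraries, where the neutrophil markers summed to at most 6.78. The part of neutrophil transcripts in the members' differences was not tested in any of the groups.

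In gonadal APC cells members were called in both directions, also among the Cxcr2 ligands. Cxcl9, Cxcl10 and Cxcl13 were lower in males, by 8.94, 7.33 and 10.5 times between the means, and Cxcl1 was higher by 1.43 times. Cxcl10 was at 1113 ± 115 in M_APC against 8155 ± 1789.6 in F_APC (SD, n = 3) and Cxcl9 at 221 ± 30.5 against 1979 ± 632. Of the members 7 were called lower and 2 higher, against 22.1% and 22.4% of all genes tested, with a median of -0.89 for the members and 0.00 for all genes. The log2 fold changes of those called lower were -3.29 ± 0.20, adjusted p = 1.7e-12 for Cxcl13, -3.12 ± 0.23 for Cxcl9, -2.86 ± 0.20 for Cxcl10, -2.24 ± 0.31 for Cxcl3, -0.98 ± 0.24 for Cxcl5, -0.79 ± 0.12 for Cxcl16 and -0.75 ± 0.09 for Cxcl12. Cxcl1 rose by 0.51 ± 0.10 (0.78 with quantile normalisation) and Cxcl2 by 0.41 ± 0.12, with overlapping libraries for Cxcl2, and Cxcl14 (-0.04 ± 0.14) did not pass the test.

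In gonadal FIP cells Cxcl9 and Cxcl10 were again lower in males and the neutrophil-attracting Cxcl1, Cxcl2 and Cxcl3 were higher. Cxcl2 was at 2896 ± 47.8 in M_FIP against 439 ± 43.7 in F_FIP (SD, n = 3), and Cxcl10 at 940.2 ± 15.9 against 5835 ± 1326. Here 4 members were called higher and 6 lower, against 18.2% and 19% of all genes tested, with a median of -0.54 against -0.02 for all genes. Log2 fold changes were 2.72 ± 0.12, adjusted p = 2.1e-15 for Cxcl2, 1.48 ± 0.31 for Cxcl3, 1.07 ± 0.10 for Cxcl1 and 0.44 ± 0.14 for Cxcl14. Those of the genes called lower were -2.61 ± 0.20 for Cxcl10, -2.26 ± 0.23 for Cxcl9, -1.67 ± 0.20 for Cxcl13, -0.67 ± 0.24 for Cxcl5, -0.58 ± 0.12 for Cxcl16 and -0.50 ± 0.09 for Cxcl12. Cxcl5 was not called with edgeR, with DESeq2, with no filter, when the other 6 groups were left out, or without M_FIP 1 (-0.61), M_FIP 3 (-0.39), F_FIP 1 (-0.66) or F_FIP 3 (-0.56), and without M_FIP 2 its value was -1.0. Cxcl14 was not called without M_FIP 3 (0.36) or F_FIP 3 (0.37).

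Markers of other cell types also differed between the sexes. In M_FIP 12 of 13 macrophage markers (median log2 fold change 1.86), 8 of 8 adipocyte (1.42), 7 of 10 endothelial (1.45) and 6 of 9 mural markers (0.92) were called higher than in F_FIP and none lower. In M_FIP the macrophage markers summed to 436 to 621 normalised counts, the adipocyte markers to 1094 to 1174, the endothelial markers to 6388 to 7447 and the mural markers to 2117 to 2362. In F_FIP these sums were 169.7 to 238, 539.9 to 613, 5677 to 6271 and 1027 to 1044 in the same order. No marker of these 4 lists was at 0 in all libraries of any group. In M_APC against F_APC the counts called higher were 2, 3, 3 and 3 and those called lower 0, 2, 0 and 2, and 6 of 10 mesothelial markers were lower. In M_DPP4_pos against F_DPP4_pos they were 2, 8, 1 and 1 higher and 6, 0, 2 and 4 lower. Of all genes 18.2% were called higher and 19% lower between the FIP groups, and 22.4% and 22.1% between the APC groups. Between the DPP4_pos groups the shares were 27.1% and 25.5%. Some counts, such as the 2 of 13 macrophage markers higher in M_APC, were under these shares. The part of such transcripts in the members' sex differences was not tested.

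**Figure D2:**
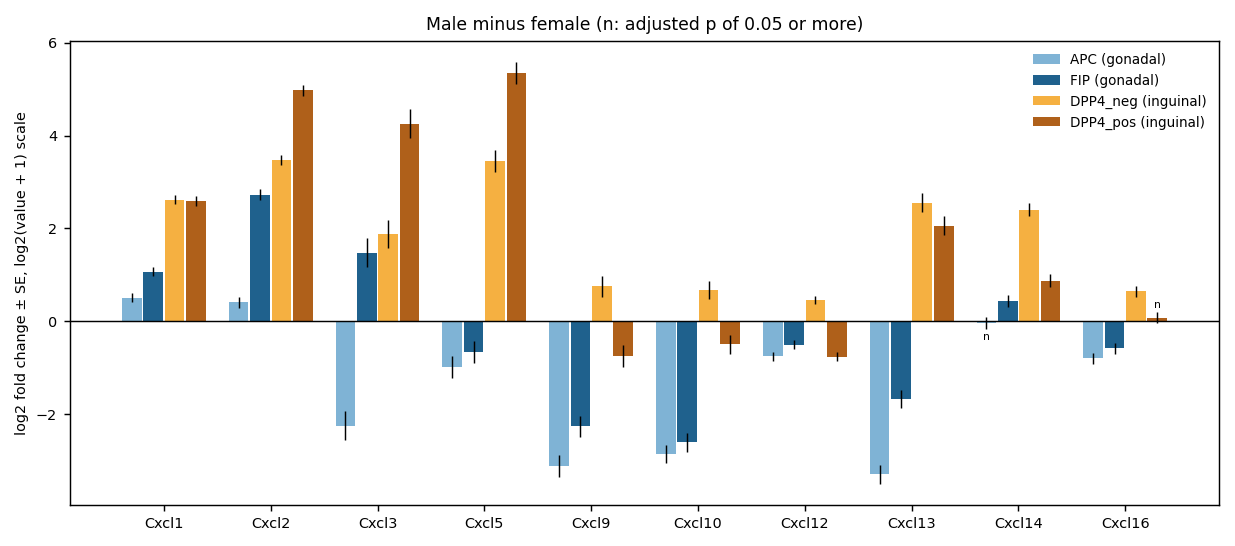
Log2 fold change, male minus female, of each CXC chemokine gene in the 4 subpopulations, with bars of 1 SE from limma and the letter n where the adjusted p was 0.05 or more. Cxcl2 is above 0 in all 4 (0.41, 2.72, 3.47 and 4.98), whereas Cxcl9 and Cxcl10 are at or below -2.26 in the gonadal pair and above 0 in DPP4_neg alone.

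Genes of the NF-kB pathway were read from lists to place the Cxcr2 ligands. The lists were chosen with earlier results of these data known. Of 14 NF-kB factors, inhibitors and target genes, 13 were higher and none was lower in M_DPP4_neg than in F_DPP4_neg, where 27.1% and 30.3% of all genes tested were called higher and lower. In M_DPP4_pos 11 were higher and 1 lower than in F_DPP4_pos, beside 27.1% and 25.5% of all genes. The list's medians were 1.0 and 0.85, and those of all genes -0.03 and 0.00. Il6, the cytokine gene, was at 25069.9 ± 2956 and 26345 ± 1967 in M_DPP4_neg and M_DPP4_pos against 3707 ± 371 and 2426 ± 375 in the female groups (SD, n = 3), log2 fold changes of 2.76 ± 0.10 and 3.45 ± 0.10. Ccl2, the monocyte attractant, rose by 2.10 ± 0.11 and 2.12 ± 0.11. Vcam1, an adhesion molecule, rose by 2.32 ± 0.14 and 0.88 ± 0.14, and Tnfaip3, which encodes the inhibitor A20, by 0.90 ± 0.12 and 1.19 ± 0.12. In M_APC 4 of the 14 were higher and 2 lower than in F_APC (all genes, 22.4% and 22.1%), and in M_FIP 9 were higher and 3 lower than in F_FIP (18.2% and 19%), with medians of 0.08 and 0.45. Of 12 receptors and adaptors upstream of NF-kB, 6 were higher and 3 lower in M_DPP4_neg and 8 were higher and 1 lower in M_DPP4_pos, with medians of 0.24 and 0.38. The share called lower in M_DPP4_neg is near that of all genes given above. Il1r1, the interleukin-1 receptor, had means of 28822 and 17189 in the male inguinal groups against 9509.9 and 6502 in the female ones, log2 fold changes of 1.6 ± 0.08 and 1.4 ± 0.08. Tnfrsf1b, a TNF receptor, rose by 1.09 ± 0.08 and 1.28 ± 0.08.

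Immediate early and heat shock genes, which respond to tissue dissociation, were read as a further list of 18. Their sum was 196102 to 201871 in M_DPP4_neg and 143707 to 185919 in F_DPP4_neg, and 130169 to 135547 in M_DPP4_pos and 181500.0 to 209938 in F_DPP4_pos. It was highest in the APC groups, at 447420.0 to 467989 in F_APC and 399795 to 417095 in M_APC, and was 282314 to 297546 in F_FIP and 289415 to 319242 in M_FIP. Between the DPP4_neg groups 10 of the 18 were higher and 4 lower in males, and between the DPP4_pos groups 5 were higher and 11 lower, with medians of 0.44 and -0.48. All genes gave 27.1% and 30.3% in the first and 27.1% and 25.5% in the second comparison, so the 4 lower and the 5 higher are near the background. The list's sum was lowest in M_DPP4_pos, and Cxcl2, Cxcl3 and Cxcl5 were highest there. The part of the dissociation response in the members' values was not tested.

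For the Cxcr3 ligands, 16 genes of interferon signalling and response were read. In M_APC 11 of them were lower and 2 higher than in F_APC, and in M_FIP 12 were lower and 1 higher than in F_FIP, where 22.1% and 19% of all genes were called lower and 22.4% and 18.2% higher. The list's medians were -0.45 and -0.51. Gbp2, an interferon-inducible GTPase, fell by 0.88 ± 0.14 and 1.14 ± 0.14 on the log2 scale, Socs1, a feedback inhibitor, by 0.75 ± 0.09 and 1.04 ± 0.09, and Cd274, which encodes PD-L1, by 0.86 ± 0.16 and 0.71 ± 0.16. In M_DPP4_neg 8 of the 16 were higher and 4 lower than in F_DPP4_neg, with Gbp2 up by 1.34 ± 0.14, Gbp5 by 1.34 ± 0.21 and Socs1 by 1.27 ± 0.09. The shares of all genes called there were 27.1% and 30.3%. In M_DPP4_pos 6 were higher and 5 lower than in F_DPP4_pos, near the 27.1% and 25.5% of all genes. The medians were 0.20 and 0.09.

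**Figure D3:**
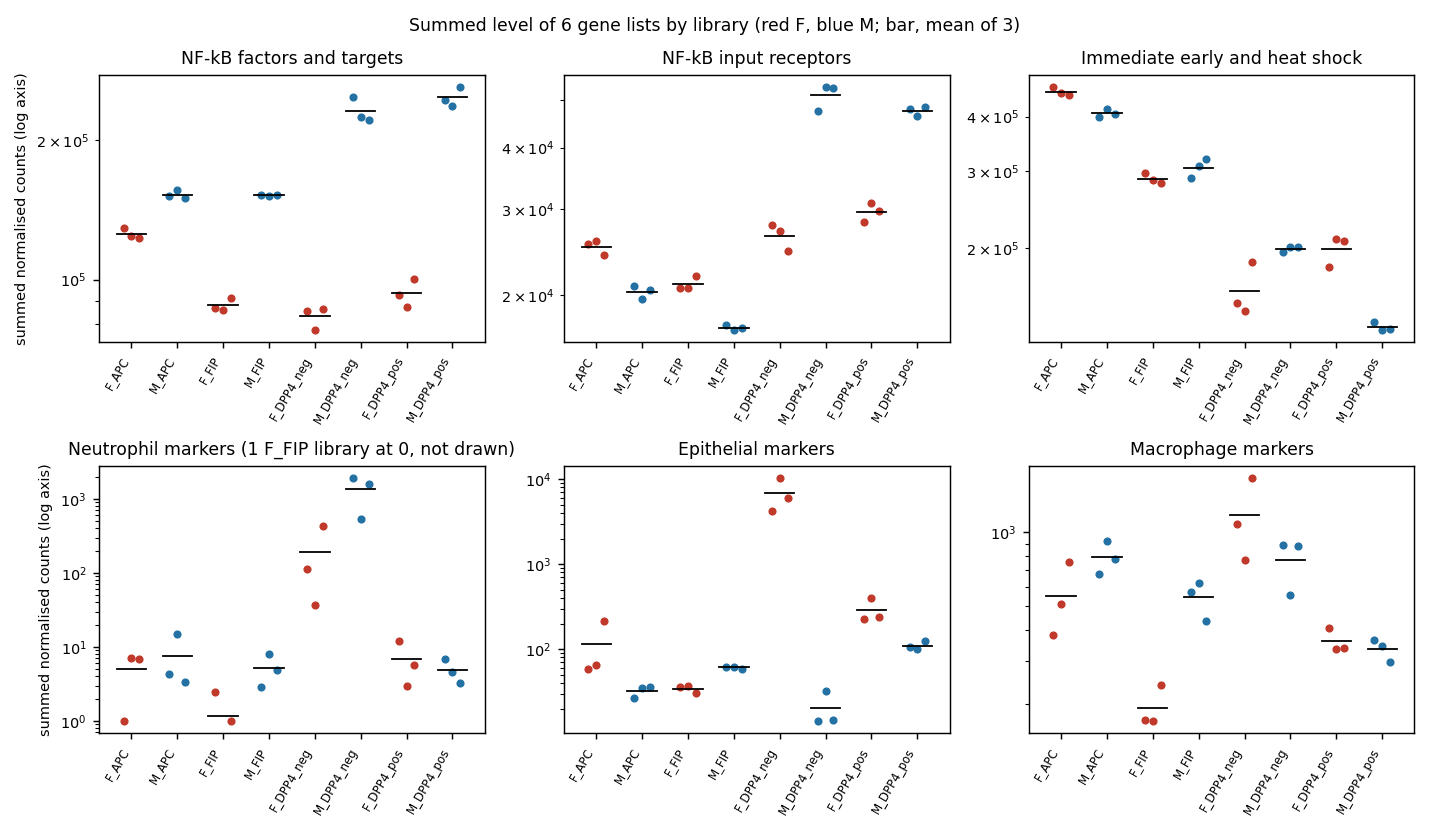
Summed normalised counts (log axis) of 6 gene lists in each library, with a bar at the mean of 3 libraries, females in red and males in blue. The NF-kB factors and targets are highest in the 6 male inguinal libraries, the neutrophil markers are highest in M_DPP4_neg and below 10 in M_DPP4_pos, and the epithelial markers are highest in F_DPP4_neg. In 1 F_FIP library the neutrophil marker sum was 0, which a log axis cannot show.

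The next comparison sets the 2 subpopulations of a depot against each other. In both depots and both sexes, FIP and DPP4_pos cells had less Cxcl14, Cxcl12 and Cxcl16 and more Cxcl13 than APC and DPP4_neg cells. Between F_FIP and F_APC, Cxcl14 was at 296 ± 21.6 against 2299 ± 122 (SD, n = 3), a log2 fold change of -2.96 ± 0.14, adjusted p = 1.84e-14. Between M_FIP and M_APC its log2 fold change was -2.48 ± 0.14, between F_DPP4_pos and F_DPP4_neg -3.25 ± 0.14, and between M_DPP4_pos and M_DPP4_neg -4.78 ± 0.14, adjusted p = 3.79e-19. Cxcl12 differed in the same order of comparisons by -1.42 ± 0.09, -1.17 ± 0.09, -1.20 ± 0.09 and -2.41 ± 0.09, and Cxcl16 by -0.86 ± 0.12, -0.65 ± 0.12, -0.47 ± 0.12 and -1.04 ± 0.12. Cxcl13 rose by 0.67 ± 0.20, 2.29 ± 0.20, 1.79 ± 0.20 and 1.30 ± 0.20. The first of these lost the threshold without F_FIP 3 (0.56, adjusted p = 0.0581), F_APC 1 (0.56, 0.0572) or F_APC 2 (0.58, 0.0518).

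Markers of other cell types were also called lower in these comparisons, in varying numbers. In F_FIP against F_APC, 12 of 13 macrophage, 8 of 8 adipocyte, 7 of 10 endothelial, 8 of 9 mural and 9 of 10 mesothelial markers were called lower, with medians of -1.59, -2.39, -1.11, -1.02 and -2.02. In M_FIP against M_APC the counts lower were 1, 7, 0, 5 and 1 in the same order. They were 13, 7, 7, 6 and 6 in F_DPP4_pos against F_DPP4_neg, where 9 of 9 epithelial markers tested were lower too, and 6, 4, 1, 8 and 2 in M_DPP4_pos against M_DPP4_neg. Of all genes 18.1%, 18%, 27.1% and 25.3% were called lower in the 4 comparisons. Of the endothelial markers 1, 1, 2 and 2 were called higher. So were 1 mural marker in the female inguinal pair and 1 mesothelial marker in the male inguinal pair. The adipocyte markers summed to 2359 to 2695 in F_APC, 2215 to 2716 in M_APC, 715 to 852 in F_DPP4_neg, 1035 to 1424 in M_DPP4_neg, 323 to 485 in F_DPP4_pos and 613 to 875 in M_DPP4_pos. The mural markers summed to 2514 to 3068, 3583 to 4328, 2441 to 3129.6, 2084 to 2994, 1445 to 1858 and 659 to 839 in these groups. The endothelial markers summed to 5677 to 6271 in F_FIP, 6388 to 7447 in M_FIP, 6420 to 7391 in F_DPP4_pos and 4243 to 4552 in M_DPP4_pos. In F_APC, M_APC, F_DPP4_neg and M_DPP4_neg they summed to 3249 to 4672, 4102 to 4763, 1894 to 2745 and 1018.5 to 1211. The endothelial sums were thus higher in FIP and DPP4_pos, although 7 of 10 markers were called lower in each female pair. Tek held 72587 reads over all libraries, against 9987 for Kdr, so these sums weigh Tek most. In M_FIP the macrophage, endothelial and mesothelial counts called lower (1, 0 and 1) were under the share of all genes. In M_DPP4_pos the endothelial and mesothelial counts (1 and 2) were so too. Adipocyte and mural markers were called lower above that share in all 4 comparisons. Cxcl14, Cxcl12 and Cxcl16 were called lower in all 4. The part of other cell types' transcripts in the members' values was not tested.

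In males Cxcl2 and Cxcl3 were higher in FIP and DPP4_pos cells, and in females neither gene was called higher there by limma over all libraries. Between M_FIP and M_APC, Cxcl3 rose by 3.79 ± 0.31 and Cxcl2 by 2.29 ± 0.12, whereas between F_FIP and F_APC the values were 0.07 ± 0.31 and -0.03 ± 0.12, neither of which passed the test. Between M_DPP4_pos and M_DPP4_neg, Cxcl3 rose by 2.96 ± 0.31, Cxcl5 by 1.23 ± 0.24 and Cxcl2 by 0.97 ± 0.12. In the female inguinal pair Cxcl2 (-0.53 ± 0.12) and Cxcl5 (-0.67 ± 0.24) were lower in DPP4_pos, and Cxcl3 was at 0.58 ± 0.31 without passing the test. Cxcl3 was called higher in that pair with edgeR (0.66, adjusted p = 0.0177), with quantile normalisation (0.72, adjusted p = 0.0414) and without F_DPP4_pos 2 (0.91, adjusted p = 0.0237). Cxcl1 was lower in F_FIP than in F_APC (-0.41 ± 0.10), and its values of 0.15 ± 0.10 in the male gonadal pair, -0.10 ± 0.10 in the female inguinal pair and -0.13 ± 0.10 in the male inguinal pair did not pass the test, the second of which was -0.52 and called with quantile normalisation. The call for Cxcl5 in females was lost with quantile normalisation (-0.54) and without F_DPP4_pos 1 (-0.59), F_DPP4_pos 2 (-0.60) or F_DPP4_neg 3 (-0.60).

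Of the Cxcr3 ligands, Cxcl9 was lower in F_FIP than in F_APC (-1.12 ± 0.23) and lower in DPP4_pos than in DPP4_neg in both sexes (-2.14 ± 0.23 in females and -3.64 ± 0.23 in males). Its value of -0.26 ± 0.23 between M_FIP and M_APC did not pass the test. Cxcl10 was called in 1 of the 4 comparisons, at -1.02 ± 0.20 between M_DPP4_pos and M_DPP4_neg, and was at -0.48 ± 0.20, -0.24 ± 0.20 and 0.15 ± 0.20 in the others. Counting all 10 members, 1 was higher and 5 lower in F_FIP than in F_APC, against a background of 21.3% and 18.1% of all genes. In M_FIP against M_APC 3 were higher and 3 lower (18.9% and 18%). In F_DPP4_pos against F_DPP4_neg 1 was higher and 6 lower, against 22.6% and 27.1%, and in M_DPP4_pos against M_DPP4_neg 4 were higher and 5 lower, against 25.2% and 25.3%. The members' medians were -0.45, -0.10, -0.50 and -0.57, beside -0.00, -0.03, -0.04 and 0.00 for all genes tested.

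**Figure D4:**
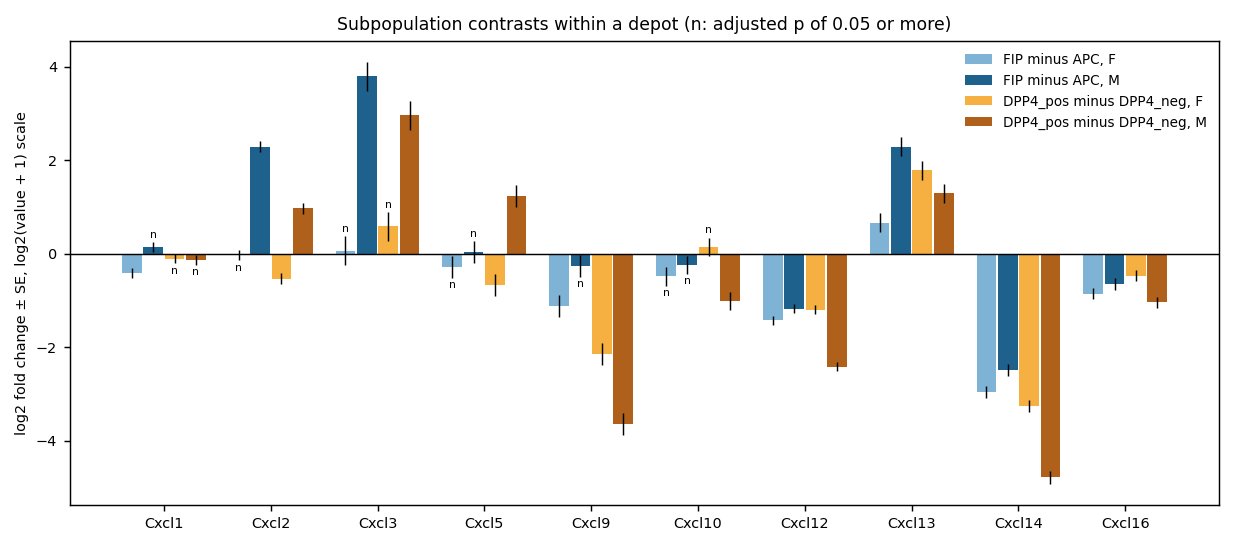
Log2 fold change of each CXC chemokine gene between the subpopulations of a depot, FIP minus APC and DPP4_pos minus DPP4_neg, in each sex, with bars of 1 SE from limma and the letter n where the adjusted p was 0.05 or more. Cxcl14 is below 0 in all 4 (-2.96, -2.48, -3.25 and -4.78) and Cxcl13 above 0 in all 4, whereas Cxcl2 is above 0 in the 2 male pairs (2.29 and 0.97) and below it in the female ones.

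The receptors and modifying enzymes of these ligands were read in the same libraries. Ackr3, the scavenger of Cxcl12, ran opposite to its ligand, with means of 15163 in F_FIP, 17893 in M_FIP, 15379 in F_DPP4_pos and 18906 in M_DPP4_pos against 4112 in F_APC, 2689 in M_APC, 3562 in F_DPP4_neg and 3919 in M_DPP4_neg. Its log2 fold changes were 1.88 ± 0.16 and 2.73 ± 0.16 in the gonadal and 2.20 ± 0.16 and 2.27 ± 0.16 in the inguinal comparisons of females and males. The atypical receptors Ackr1, Ackr2 and Ackr4 were also called higher in FIP and DPP4_pos in both sexes, from 1.21 for Ackr1 in the male inguinal pair to 5.68 for Ackr4 in the same pair. That last value depends on the added 1, since M_DPP4_neg held 1 read of Ackr4 against 173 in M_DPP4_pos, a ratio of 181 (exact binomial interval at 95%, 31.98 to 7172, counting error only). The next highest was 3.81, for Ackr4 in the male gonadal pair. The signalling receptors were low. Cxcr4 had group means of 7.74 in F_FIP to 86.5 in F_DPP4_neg and Cxcr5 of 7.90 in F_DPP4_pos to 27.4 in M_APC, while Cxcr1, Cxcr2, Cxcr3 and Cxcr6 did not pass the filter and had means of at most 5.04 (Cxcr6 in M_DPP4_neg). Dpp4, the membrane protease that clips the N-terminus of Cxcl9, Cxcl10 and Cxcl12, is named in the inguinal labels, so its difference between DPP4_neg and DPP4_pos is part of how the cells were grouped. In the gonadal depot it had means of 8437 ± 811 in F_FIP against 1272 ± 202 in F_APC and 4819.7 ± 311 in M_FIP against 194 ± 30.5 in M_APC (SD, n = 3), log2 fold changes of 2.74 ± 0.24 and 4.64 ± 0.24.

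The other 5 CXC ligand genes read gave little signal in most groups. Cxcl15, which lies between Cxcl3 and Cxcl1 in the cluster, was at 116 ± 23.1 in F_DPP4_neg (SD, n = 3) and at most 3.17 on average in the other groups, and Cxcl17 was at 21.9 ± 10.2 there. Both are known from mucosal epithelia, and F_DPP4_neg was the group with epithelial markers. The part of such transcripts in these values was not tested. Pf4, a platelet and macrophage ligand, had means between 1.22 in F_FIP and 18.9 in F_DPP4_neg, and Cxcl11 and Ppbp did not pass the filter. Ppbp and Pf4 lie between Cxcl5 and Cxcl3 on the chromosome. In M_DPP4_pos, where Cxcl5 had a mean of 5079 and Cxcl3 of 3936, they had means of 9.04 and 2.25. For Ppbp this was the highest group mean, from 24 reads, and the next highest was 2.26 in M_APC.

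A further comparison sets gonadal against inguinal cells, APC against DPP4_neg and FIP against DPP4_pos, in each sex. In males all 10 members were lower in M_APC than in M_DPP4_neg, against 33% of all genes called lower and 33.1% higher. Cxcl13 was at 16.8 ± 1.29 in M_APC and 2648 ± 569.7 in M_DPP4_neg (SD, n = 3), a log2 fold change of -7.20 ± 0.20, adjusted p = 1.18e-19. The other values were -6.14 ± 0.31 for Cxcl3, -5.76 ± 0.24 for Cxcl5, -3.98 ± 0.12 for Cxcl2, -3.71 ± 0.23 for Cxcl9, -2.52 ± 0.14 for Cxcl14, -1.90 ± 0.20 for Cxcl10, -1.70 ± 0.10 for Cxcl1, -1.34 ± 0.12 for Cxcl16 and -0.92 ± 0.09 for Cxcl12. With quantile normalisation Cxcl1 moved to -1.02 and Cxcl12 to -0.47, both still called. The comparison shares the M_DPP4_neg libraries with the sex comparison of DPP4_neg cells. The members' median was -3.11 and that of all genes 0.02.

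Between M_FIP and M_DPP4_pos, 7 members were lower and 1, Cxcl12, was higher in M_FIP, against 32.4% and 32.6% of all genes tested. Cxcl5 was at 42.6 ± 19.4 in M_FIP against 5079 ± 237 in M_DPP4_pos (SD, n = 3), a log2 fold change of -6.95 ± 0.24, adjusted p = 4.89e-18. Cxcl13 had a value of -6.21 ± 0.20, Cxcl3 of -5.31 ± 0.31, Cxcl2 of -2.65 ± 0.12, Cxcl1 of -1.42 ± 0.10, Cxcl10 of -1.13 ± 0.20 and Cxcl16 of -0.95 ± 0.12. Cxcl12 was at 0.31 ± 0.09, which moved to 0.66 with quantile normalisation and lost the threshold without M_FIP 3 (0.23, adjusted p = 0.0518), and Cxcl1 moved to -0.76 with quantile normalisation. Cxcl9 (-0.32 ± 0.23) and Cxcl14 (-0.22 ± 0.14) did not pass the test. The members' median was -1.27, that of all genes 0.02.

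In females the depot differences were of both signs. F_APC had more Cxcl10 than F_DPP4_neg, 8155 ± 1789.6 against 2681 ± 735 (SD, n = 3), and less Cxcl3, Cxcl13, Cxcl5 and Cxcl2. Here 3 members were called higher and 4 lower, against 26.8% and 32.2% of all genes, with a median of 0.01 beside -0.02 for all genes. Log2 fold changes were 1.62 ± 0.20, adjusted p = 1.25e-07 for Cxcl10, -2.02 ± 0.31 for Cxcl3, -1.35 ± 0.20 for Cxcl13, -1.33 ± 0.24 for Cxcl5, -0.91 ± 0.12 for Cxcl2, 0.41 ± 0.10 for Cxcl1 and 0.28 ± 0.09 for Cxcl12. Cxcl9 (0.16 ± 0.23), Cxcl14 (-0.08 ± 0.14) and Cxcl16 (0.10 ± 0.12) did not pass the test. Quantile normalisation ended the call for Cxcl1 (0.08, adjusted p = 0.536) and leaving out F_DPP4_neg 2 ended that for Cxcl12 (0.19, adjusted p = 0.11).

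Between F_FIP and F_DPP4_pos, Cxcl9 and Cxcl10 were higher and 5 members lower in F_FIP, against 22.1% and 22.6% of all genes tested. Cxcl9 rose by 1.19 ± 0.23 and Cxcl10 by 0.99 ± 0.20. Cxcl3 was at -2.54 ± 0.31, Cxcl13 at -2.47 ± 0.20, adjusted p = 2.36e-10, Cxcl5 at -0.94 ± 0.24, Cxcl2 at -0.40 ± 0.12 and Cxcl16 at -0.29 ± 0.12, adjusted p = 0.0499. Cxcl1 (0.10 ± 0.10), Cxcl12 (0.06 ± 0.09) and Cxcl14 (0.22 ± 0.14) did not pass the test. The call for Cxcl16 lay at the threshold and was lost under 8 other settings, among them the library number as a block (adjusted p = 0.0555), and without F_FIP 3 (-0.11), F_DPP4_pos 1 (-0.24) or F_DPP4_pos 3 (-0.19). Cxcl2 lost its call without F_DPP4_pos 1 (-0.31). The members' median was -0.12 and that of all genes 0.01.

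Markers of other cell types differed between the depots as well. Endothelial markers were called higher in the gonadal cells for 9 of 10 in F_APC, 10 of 10 in M_APC, 7 of 10 in F_FIP and 9 of 10 in M_FIP, and mesothelial markers for 7, 9, 6 and 10 of 10. In each female comparison 3 mesothelial markers were called lower, and in F_FIP 1 endothelial marker was. Of all genes 26.8%, 33.1%, 22.1% and 32.6% were called higher in these comparisons and 32.2%, 33%, 22.6% and 32.4% lower. Adipocyte markers were higher for 8, 8, 5 and 4 of 8. Macrophage markers were higher for 1, 5, 1 and 8 and lower for 10, 3, 11 and 1 of 13. The mesothelial markers summed to 4029 to 4282 in M_APC and 4065 to 4279.6 in M_FIP against 591 to 752 in M_DPP4_neg, where Muc16 was at 0, and 63.9 to 129 in M_DPP4_pos. In females the mesothelial sums were 5135 to 5224 in F_APC against 6904 to 16626 in F_DPP4_neg, and 3924 to 4349 in F_FIP against 474 to 696 in F_DPP4_pos. The F_DPP4_neg sums were above those of F_APC although 7 of the 10 markers were called higher in F_APC (median log2 fold change 4.15). The sums of that pair thus do not follow most of the markers, and F_DPP4_neg was also highest in epithelial markers. The part of such transcripts in the members' depot differences was not tested.

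**Figure D5:**
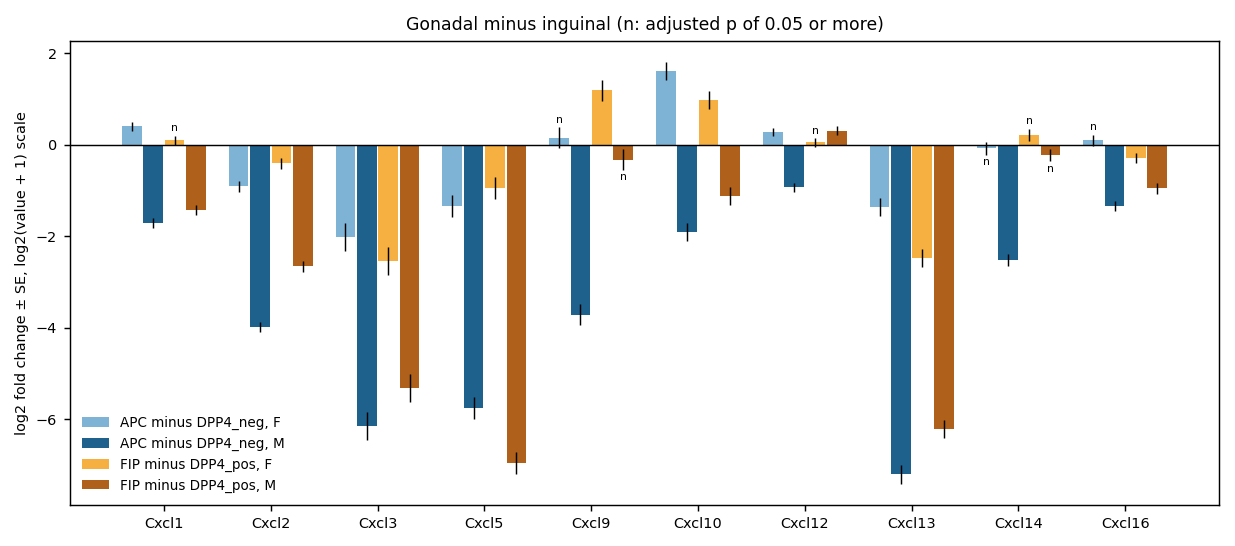
Log2 fold change, gonadal minus inguinal, of each CXC chemokine gene for APC against DPP4_neg and FIP against DPP4_pos in each sex, with bars of 1 SE from limma and the letter n where the adjusted p was 0.05 or more. The longest bars are those of Cxcl13 (-7.20) in males for APC against DPP4_neg and of Cxcl5 (-6.95) in males for FIP against DPP4_pos, whereas Cxcl10 is above 0 in both female comparisons.

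The NF-kB list was also read between the depots. Of its 14 genes 11 were lower and 3 higher in M_APC than in M_DPP4_neg, where 33% and 33.1% of all genes were, and 9 were lower and 1 higher in M_FIP than in M_DPP4_pos, beside 32.4% and 32.6%. The list's medians were -1.37 and -0.64. Nfkb1, a subunit of the factor, had means of 2194 in M_APC and 12737 in M_DPP4_neg, a log2 fold change of -2.54 ± 0.08, and one of -3.01 ± 0.08 between M_FIP and M_DPP4_pos. Ccl2 had values of -2.22 ± 0.11 and -1.91 ± 0.11, and Icam1, an adhesion molecule for leukocytes, of -2.28 ± 0.09 and -0.68 ± 0.09. Zfp36, whose protein destabilises cytokine mRNAs, ran the other way with 0.96 ± 0.10 and 1.11 ± 0.10. In females 5 of the 14 were higher and 6 lower in F_APC than in F_DPP4_neg, and 3 higher and 8 lower in F_FIP than in F_DPP4_pos, beside 26.8% and 32.2% and 22.1% and 22.6% of all genes called higher and lower. Of the 12 upstream receptors and adaptors 2 were higher and 7 lower in M_APC than in M_DPP4_neg, with Il1r1 at -2.43 ± 0.08 and Tnfrsf1b at -1.92 ± 0.08, and 1 was higher and 9 lower in M_FIP than in M_DPP4_pos. Irf1, a transcription factor of the interferon response, was higher in the gonadal cells of all 4 comparisons (2.20 ± 0.13 and 1.95 ± 0.13 for APC, 1.80 ± 0.13 and 1.54 ± 0.13 for FIP, females first), whereas Cxcl10 was higher in the gonadal cells of females and lower in those of males. Most other genes of the interferon list did not share the direction of Irf1 in males. Of the 16 genes, 3 were higher and 10 lower in M_APC than in M_DPP4_neg, with a median of -0.55. In M_FIP 4 were higher and 11 lower than in M_DPP4_pos (-0.76). In females 7 were higher and 4 lower for APC (0.19), and 3 higher and 8 lower for FIP (-0.20). The shares of all genes are those given above.

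Whether these differences depended on sex was tested as a difference of differences in the same limma fit. For APC against DPP4_neg the male depot difference was more negative than the female one for all 10 members, against 20.3% of all genes called in that direction and 22.6% in the other. The values ran from -1.21 ± 0.13 for Cxcl12 to -5.85 ± 0.29, adjusted p = 7.87e-14 for Cxcl13. For FIP against DPP4_pos 8 members were called in that direction and none in the other, against 19.2% and 15.7%, with Cxcl5 at -6.02 ± 0.34, adjusted p = 3.24e-12, while Cxcl12 (0.26 ± 0.13) and Cxcl14 (-0.44 ± 0.19) did not pass the test. The difference between FIP and APC was more positive in males for 4 members and more negative for none, against 5.46% and 5.33%, with values of 3.73 ± 0.44 for Cxcl3, 2.32 ± 0.16 for Cxcl2, 1.62 ± 0.29 for Cxcl13 and 0.56 ± 0.15 for Cxcl1. That between DPP4_pos and DPP4_neg was more positive in males for Cxcl2, Cxcl3 and Cxcl5 and more negative for 5 members, against 16.4% and 12.6%. Among the 5, Cxcl14 was at -1.52 ± 0.19, Cxcl9 at -1.5 ± 0.33, Cxcl12 at -1.22 ± 0.13, Cxcl10 at -1.17 ± 0.28 and Cxcl16 at -0.57 ± 0.17. The 3 Cxcr2 ligands called in this test thus differed in sign from the other 5 members called, and Cxcl1 (-0.03 ± 0.15) did not pass it.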

How the data were processed

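Gene expression was measured in 24 libraries, 3 in each of 8 groups set by sex, depot and subpopulation from the labels. The deposited values were a normalised signal per gene, which the authors made by dividing read counts by 1 size factor per library. This was checked on the values: 100% were whole multiples of 1 step per library within 0.01 read, which gave back the counts behind the deposited table. Builds GRCm38 and mm10 and the programs HISAT2 2.0.1, DESeq2 1.6.3, featureCounts 1.4.6 and Trim Galore 0.4.1 are named per the submitters' processing notes. Their roles and the strand setting are not given in the sources used here, so reads of overlapping antisense genes cannot be told apart. Near-identical stretches of Cxcl1, Cxcl2 and Cxcl3 could share reads.

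limma 3.58.1 (R 4.3.3) was fitted on log2(value + 1) over all 24 libraries, with group means and a trend of the variance, to the 14517 genes that reached 10 in 3 or more libraries. Adjusted p-values (Benjamini-Hochberg, all genes of a contrast) under 0.05 were called, and the test was tried on simulated data. The added 1 shrinks the fold changes of low genes. Alternatives were edgeR 4.0.16 (quasi-likelihood) and DESeq2 1.42.0 on the recovered reads, TMM and quantile normalisation, pseudocounts of 0.5 and 5, no filter or one of 50, fits on the contrast's own groups, a block on the library number, and leaving out each library. edgeR called 8552 genes between M_DPP4_neg and F_DPP4_neg, where limma called 8332. Counting error limits low values, such as Cxcl3 in M_APC. Over the 24 replicate pairs chi-square per degree of freedom was 1.61 to 25.4, so no pair agreed within sampling noise.

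All 10 members were named. A gene that the naming rule selects is not reported here. Of the other lists (CXC receptors and other ligands, processing enzymes, NF-kB and interferon genes, dissociation response, cell type markers) up to 4 called genes with the largest fold change per kind of comparison were named, together with any receptor. The members and lists were chosen with earlier results of these data known. Marker lists of lymphocytes and dendritic cells, endothelial, mural, mesothelial and adipocyte cells were also read. Of the 12 lymphocyte and dendritic cell markers 4 were tested. Between M_DPP4_neg and F_DPP4_neg 2 of these 4, 0 of 10, 2 of 9, 1 of 10 and 4 of 8 were called higher. In the same order 0, 7, 4, 4 and 0 were called lower, beside 27.1% of all genes called higher and 30.3% lower. Correlations of the deviations of same-numbered libraries were 0.129, 0.201 and 0.105 between F_DPP4_pos and F_DPP4_neg, each over 0.1, so these were taken as paired from the data. In each other comparison at least 1 was 0.1 or less (lowest -0.173). The values reported come from the main fit, which modelled no pairing.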

Additional observations from a re-analysis of the deposited data

Results flagged for a closer look

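The effect of subpopulation or depot differed between the sexes for the members below, by the test of the difference of log2 fold changes itself (limma, Benjamini-Hochberg adjusted p under 0.05 over 14517 genes). For the FIP minus APC difference, the male minus female values were 0.56 for Cxcl1, 2.32 for Cxcl2, 3.73 for Cxcl3 and 1.62 for Cxcl13. Each of these 4 genes was thus relatively higher in male FIP cells than the female pair gives. For the DPP4_pos minus DPP4_neg difference they were 1.5 for Cxcl2, 2.38 for Cxcl3, 1.90 for Cxcl5, -1.5 for Cxcl9, -1.17 for Cxcl10, -1.22 for Cxcl12, -1.52 for Cxcl14 and -0.57 for Cxcl16. The 3 positive values belonged to Cxcr2 ligands. For the depot difference of APC minus DPP4_neg they were -2.11 for Cxcl1, -3.07 for Cxcl2, -4.12 for Cxcl3, -4.43 for Cxcl5, -3.87 for Cxcl9, -3.52 for Cxcl10, -1.21 for Cxcl12, -5.85 for Cxcl13, -2.44 for Cxcl14 and -1.44 for Cxcl16. The 10 members shared the negative sign, and Cxcl10 was higher in the gonadal cells of females and lower in those of males. For the depot difference of FIP minus DPP4_pos they were -1.52 for Cxcl1, -2.25 for Cxcl2, -2.77 for Cxcl3, -6.02 for Cxcl5, -1.51 for Cxcl9, -2.11 for Cxcl10, -3.74 for Cxcl13 and -0.66 for Cxcl16. Cxcl9 and Cxcl10 were higher in F_FIP than in F_DPP4_pos, and Cxcl10 was lower in M_FIP than in M_DPP4_pos. These 4 tests share libraries and are not independent of each other.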

How the results depend on the processing

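Of 160 log2 fold changes (10 members in 16 comparisons) 128 were called, and 114 of these kept their direction and their side of the threshold under every alternative run, while 14 lost the threshold under 1 or more of them, as given beside their values. All 16 counts of called members stayed within 1.5 times under each alternative: the 10 higher in M_DPP4_neg than in F_DPP4_neg ranged from 7 (quantile normalisation) to 10, and from 8 to 10 when 1 library was left out. One value reversed: the sex difference of the inguinal comparison for Cxcl1, -0.03 and not called, was 0.42 (adjusted p = 0.0450, limma) with quantile normalisation, and the cause was not tested. That scaling moved the median of all genes from -0.02 to 0.11 between F_APC and F_DPP4_neg, and moved Cxcl1 in the sex difference of the APC and DPP4_neg depot comparison from -2.11 to -1.10 and Cxcl12 from -1.21 to -0.78. With the library number as a replicate block shared by all 8 groups, the count for F_DPP4_pos against F_DPP4_neg stayed at 7 of 10. Such a shared block is not a paired test of that comparison alone. The block changed no call but that of Cxcl16 between F_FIP and F_DPP4_pos, whose count went from 7 to 6. Of the 32 uncalled values, 12 came under the threshold in the same direction under 1 or more alternatives (limma unless named). Cxcl10 between F_FIP and F_APC did so with quantile normalisation (adjusted p = 0.0286), with TMM (0.0490) and without F_FIP 3 (0.0154) or F_APC 3 (0.0432). Cxcl3 did so between F_DPP4_pos and F_DPP4_neg, as given beside its value. With quantile normalisation so did Cxcl1 in that pair (-0.52) and between F_FIP and F_DPP4_pos (0.29), and, as sex differences, Cxcl9 of FIP minus APC (0.99) and Cxcl12 of FIP minus DPP4_pos (0.43), both also without 1 library. With the other groups left out so did Cxcl10 between M_FIP and M_APC (-0.24), Cxcl9 between M_FIP and M_DPP4_pos (-0.32) and Cxcl14 in the sex difference of FIP minus APC (0.47). Without F_DPP4_pos 3 so did Cxcl14 between F_FIP and F_DPP4_pos (0.40) and in the sex difference of FIP minus DPP4_pos (-0.62; -0.53 without F_DPP4_pos 1), and without F_DPP4_pos 1 Cxcl13 in that of DPP4_pos minus DPP4_neg (-0.79). Depth limits Cxcl3 and Cxcl13 in M_APC, with 18 and 45 reads.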
